A study of Rattus norvegicus with 56 samples.

Results

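Rab proteins are small GTPases that mark the membranes of a cell's trafficking routes, and Rilp (Rab-interacting lysosomal protein) is a partner of one of them, Rab7. The set described here holds 58 genes, 57 Rab genes and Rilp, of the 32883 genes in the deposited tables. The Rab genes are all those whose symbol in the 30 min table is Rab, a number and at most a letter and a further digit. They were carried to the 3 h table by Ensembl identifier, and 1 of them, Rab1b, stands under another symbol (LOC100363782) there. Rab5a, a main early endosome Rab, was not analysed here. The rule itself used symbols and no measured value, but the members were chosen with earlier results of these data known.

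The RNA came from microdissected kidney tubules of male Sprague-Dawley rats, an outbred strain; the labels give no age. In the obstructed rats (unilateral ureteral obstruction, UUO) the left ureter was tied off close to the renal pelvis, and in sham rats it was exposed in the same operation but not tied. One segment was the cortical collecting duct (CCD), which adjusts water and salt excretion under vasopressin, and the other the cortical thick ascending limb (cTAL), which reabsorbs salt and secretes uromodulin. Each was taken at 30 min and at 3 h, with 4 numbered replicates per arm, 2 libraries per number in CCD and 1 in cTAL, which makes 48 libraries. A further 8 whole-kidney samples were not analysed here. A CCD holds principal and intercalated cells together, so each value is a mixture. In such bulk samples fewer cells of a type and less RNA per cell cannot be told apart.

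A Rab is carried in the cytosol in its GDP form by GDP dissociation inhibitors, is switched on at a membrane by an exchange factor (GEF), and is switched off by a GTPase-activating protein (GAP). In its GTP form it recruits effectors: motors, tethers and coat factors that move, dock or mature a vesicle. In principal cells this machinery stores the water channel aquaporin-2 in vesicles, brings it to the apical membrane under vasopressin, and takes it back for recycling or degradation. Rilp binds Rab7-GTP on late endosomes and lysosomes and recruits the dynein-dynactin motor, which carries these organelles toward the cell centre. Its relatives Rilpl1 and Rilpl2 bind Rab8 and Rab10 when these are phosphorylated by the kinase Lrrk2, and act at the centrosome and primary cilium.

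All levels are TPM, a scale of transcripts per length with a fixed total, so that genes can be compared within a library. Changes are differences in log2(TPM + 1), UUO minus sham, with the standard error (SE) from limma. The scale understates changes near 1 TPM. A gene was tested where at least 4 of the 8 replicates reached 1 TPM, and it is called where its Benjamini-Hochberg adjusted p over all genes tested was under 0.05. The 30 min and 3 h tables were made separately, so levels and changes at the 2 times are given side by side and their difference was not tested. Nothing in the labels says how the numbered replicates were kept apart beyond their numbers, so the p-values measure the spread between them as numbered. Sequencing depth is unknown, since TPM do not keep it.

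Each 30 min library had between 8744 and 11916 genes at 1 TPM or above, and each 3 h library between 9585 and 10750. The defining markers went with the segment labels. At 3 h the 8 principal cell markers summed to 5724 to 19238 TPM over CCD replicates and to 391 to 1316 TPM over cTAL replicates, and the 7 thick limb markers summed to 32212 to 36731 TPM in UUO cTAL and 36929 to 62747 TPM in sham cTAL. Some CCD libraries at 3 h also held thick limb transcripts, with sums of 140.2 to 10263 TPM over UUO replicates and 176 to 4589 TPM over sham replicates. The 2 libraries of a number were not alike in sham CCD. There, 4 of 49 members at 30 min (Rab2a, Rab6a, Rab22a and Rab24) and 6 of 47 at 3 h (these and Rab10 and Rab43) were higher in library 1 than in library 2 in all 4 numbers, by a mean of 1 or more on the log2 scale. The same held for 5% of all genes at 30 min and 3.6% at 3 h in sham, but for 0.106% and 0.186% in UUO CCD, where it held for 0 of 46 and 0 of 47 members. Calls on these members below are therefore given for single libraries as well.

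Rilp fell at 3 h of obstruction in both segments, with the smallest p of any member in each. In CCD at 3 h Rilp stood at 26.8, 21.7, 23.1 and 17.7 TPM in the 4 UUO replicates and at 68.6, 67.4, 69.4 and 53.1 TPM in the 4 sham replicates. In cTAL at 3 h it stood at 9.52, 12.5, 12.5 and 12.5 TPM in UUO and 55.2, 51.4, 46.7 and 50.6 TPM in sham. The arms did not overlap in either segment, and every UUO value lay under every sham value by a wide gap. The change in CCD was -1.53 (SE 0.15, limma adjusted p = 0.0018), a 2.88-fold lower level, and in cTAL -2.03 (SE 0.17, adjusted p = 0.000273), a 4.09-fold lower level. The exact two-sided permutation test gave p = 0.0286 in each segment, the smallest value that 4 against 4 replicates allow. The 2 libraries of each CCD number gave the same picture, with means of 25.4 and 19.3 TPM in UUO for libraries 1 and 2, against 64.3 and 64.9 TPM in sham.

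At 30 min Rilp was not called. It read 15.8, 23.2, 39.1 and 29.1 TPM in UUO CCD and 29.4, 40.3, 40.7 and 37.6 TPM in sham CCD, and the arms overlapped. In cTAL it read 10.9, 21.3, 21.6 and 25.9 TPM in UUO and 18.1, 23.1, 20.1 and 33.5 TPM in sham, again with overlap. The changes were -0.60 (95% interval -1.26 to 0.06, adjusted p = 0.336) in CCD and -0.26 (-0.90 to 0.38, adjusted p = 1) in cTAL.

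Rab7a, the late endosome GTPase that Rilp binds, was among the most abundant members and was not called at either time. At 3 h it averaged 243 ± 10.05 TPM in UUO CCD and 255 ± 6.17 TPM in sham CCD (SD, n = 4 each), a change of -0.07 (95% interval -0.24 to 0.10). In cTAL it averaged 189.9 ± 21.3 TPM in UUO and 194 ± 20.1 TPM in sham, a change of -0.03 (-0.31 to 0.25). Both intervals leave out a change of the size seen for Rilp.

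Of Rilp's relatives, which are not members of the set, Rilpl2 fell in both segments at 3 h. It read 53.8, 30.2, 29.5 and 25.0 TPM in UUO CCD and 72.2, 68.8, 65.3 and 70.8 TPM in sham CCD, a change of -1.05 (SE 0.21, adjusted p = 0.0155). In cTAL it read 40.2, 35.4, 18.5 and 32.04 TPM in UUO and 63.1, 69.9, 58.5 and 62.2 TPM in sham, a change of -1.04 (SE 0.23, adjusted p = 0.0212). Rilpl1 was not called, at -0.70 (adjusted p = 0.133) in CCD and -0.52 (adjusted p = 0.446) in cTAL.

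Rab3a was the other member that fell in both segments at 3 h. Rab3 proteins sit on secretory vesicles and act in regulated exocytosis; Rab3a is best known from synaptic vesicles. In CCD Rab3a stood at 8.69, 3.44, 6.56 and 3.30 TPM in UUO and 23.4, 19.0, 24.6 and 21.9 TPM in sham. In cTAL it stood at 1.19, 3.60, 1.98 and 4.17 TPM in UUO and 14.8, 21.2, 16.4 and 15.2 TPM in sham. The arms did not overlap in either segment, and the highest UUO value over both segments, 8.69 TPM, lay under the lowest sham value, 14.8 TPM. The change was -1.93 in CCD (SE 0.27, adjusted p = 0.00622, 3.81-fold lower) and -2.33 in cTAL (SE 0.32, adjusted p = 0.00309, 5.02-fold lower), with the exact p again at its smallest value of 0.0286 in each. At 30 min it read 18.1, 9.85, 22.6 and 15.2 TPM in UUO CCD and 23.3, 27.2, 27.6 and 24.1 TPM in sham CCD. Those arms did not overlap, but the change of -0.74 was not called (adjusted p = 0.292). In cTAL at 30 min the values were 11.1, 14.7, 21.4 and 12.3 TPM in UUO and 12.2, 18.1, 25.0 and 22.8 TPM in sham, and they overlapped (-0.36, adjusted p = 1).

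**Figure D1:**
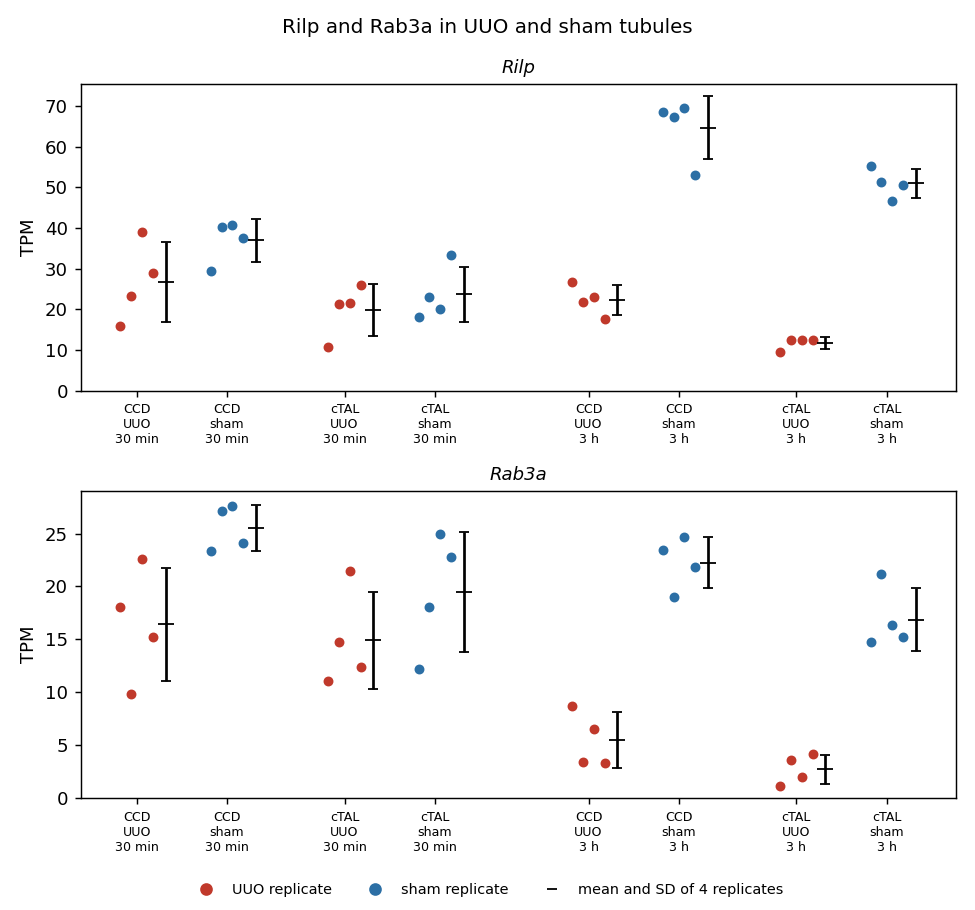
Rilp and Rab3a in TPM (linear axes from 0) in each replicate, UUO left of sham, in CCD and cTAL at 30 min and 3 h; the black marks beside the points are means with bars of 1 SD (n = 4), and a CCD point is the mean of 2 libraries. At 3 h every UUO point of both genes lies under every sham point in both segments, whereas at 30 min the arms overlap or lie close together.

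Since these 2 genes fell together, the sequence around the start of each is shown, from RefSeq on the build GRCr8 (the deposited values were made on Rnor_6.0), as 250 bases before to 50 bases after the gene start, read 5′ to 3′ on the gene's strand. The RefSeq table held such a sequence for 47 of the 58 members. Capitals mark matches on either strand to the GC box GGGCGG, which Sp1-family factors bind, and to TGACG, the core letters of the cAMP response element.
Rilp, chr10:60853307-60853606, plus strand: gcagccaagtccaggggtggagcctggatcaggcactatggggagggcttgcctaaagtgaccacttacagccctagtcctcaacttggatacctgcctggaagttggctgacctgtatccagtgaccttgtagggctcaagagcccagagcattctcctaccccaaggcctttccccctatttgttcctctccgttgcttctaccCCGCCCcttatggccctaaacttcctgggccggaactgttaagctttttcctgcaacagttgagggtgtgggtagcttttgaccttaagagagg
Rab3a, chr16:18722224-18722523, minus strand: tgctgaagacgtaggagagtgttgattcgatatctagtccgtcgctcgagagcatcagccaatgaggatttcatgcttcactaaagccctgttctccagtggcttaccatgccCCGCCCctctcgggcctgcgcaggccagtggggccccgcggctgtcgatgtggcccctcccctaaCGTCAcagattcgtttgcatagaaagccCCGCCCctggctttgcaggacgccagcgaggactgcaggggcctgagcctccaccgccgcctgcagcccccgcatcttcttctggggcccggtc
The Rilp window held 1 GC box, which begins 44 bases before the start, and no TGACG. The Rab3a window held GC boxes at 137 and 44 bases before the start and 1 TGACG at 72 bases before it. Neither held the full element TGACGTCA (which contains TGACG), the E-box CACGTG or the AP-1 letters TGANTCA. Of all 33469 promoters of this length, 33.1% held the GC box, 21.2% TGACG, 1.83% TGACGTCA, 6.42% CACGTG and 7.33% TGANTCA, so these letters are common and the matches are a description only. The window was 54.7% G and C for Rilp and 62.7% for Rab3a.

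In CCD at 3 h 4 of the 48 members tested were called, none higher and 4 lower (Rilp, Rab3a, Rab40b and Rab20), against 13% of all genes tested (5% higher and 8.04% lower). In cTAL at 3 h 6 of 46 were called, none higher and 6 lower (Rilp, Rab3a, Rab3d, Rab27a, Rab19 and Rab28), against 11.7% of all genes (4.06% higher and 7.64% lower). The shares of members called were near those of all genes. The members' median change was -0.14 in CCD and -0.07 in cTAL, and that of all genes was -0.14 in CCD and -0.12 in cTAL. Rilp and Rab3a were called in both segments, 2 of the 4 in CCD and 2 of the 6 in cTAL. By role, the Rabs called in CCD were 1 of 9 tested exocytosis Rabs, 1 of 6 early endosome Rabs, 0 of 9 recycling endosome Rabs, 0 of 11 ER and Golgi Rabs, 0 of 8 late endosome and lysosome Rabs and 1 of 4 of other roles. In cTAL they were 3 of 8 exocytosis Rabs, 0 of 6 early endosome Rabs, 0 of 9 recycling endosome Rabs, 1 of 11 ER and Golgi Rabs, 0 of 7 late endosome and lysosome Rabs and 1 of 4 of other roles. Median-of-ratios rescaling moved the median of all genes to -0.01 in CCD and 0.01 in cTAL. It then called 1 member higher (Rab29) and 3 lower (Rilp, Rab3a and Rab40b) in CCD, beside 700 higher and 455 lower of all 10530 genes. In cTAL it called 0 higher and 4 lower (Rilp, Rab3a, Rab3d and Rab19), beside 492 higher and 414 lower of all 10023 genes. Leaving out 1 replicate at a time, the count in CCD was 9 without UUO replicate 1, where 15.5% of all genes were called. It was 2 without UUO replicate 2 (5.72% of all genes) or without sham replicate 2 (4.42%). In cTAL it was 3 without UUO replicate 4 (6.53% of all genes) or sham replicate 3 (5.93%), and 2 without sham replicate 2 (4.51%). Rilp and Rab3a kept their calls in each of these fits.

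Among the exocytosis Rabs of cTAL, Rab3d, found on the granules of secretory epithelia, read 3.66, 5.55, 5.01 and 5.19 TPM in UUO and 9.86, 14.3, 12.6 and 13.2 TPM in sham at 3 h. Its arms did not overlap, and its change was -1.21 (SE 0.24, adjusted p = 0.0152). Rab27a, which docks secretory granules at the plasma membrane, read 0.810, 1.35, 0 and 0.940 TPM in UUO and 3.72, 2.45, 3.11 and 2.19 TPM in sham, with no overlap but at a low level. Its change was -1.17 (SE 0.32, adjusted p = 0.0408). In CCD Rab3d read 12.0, 7.61, 10.5 and 5.37 TPM in UUO and 12.3, 14.5, 9.89 and 13.8 TPM in sham (-0.52, adjusted p = 0.185), and Rab27a 3.29, 3.14, 2.37 and 2.75 TPM in UUO and 2.16, 3.27, 3.84 and 3.46 TPM in sham (-0.07, adjusted p = 0.841). The Rab27a call was lost in 7 of the 8 fits that left out 1 replicate (adjusted p 0.0453 to 0.0928) and with an offset of 0.1 TPM in place of 1 (adjusted p = 0.11), and that of Rab3d in 1 of 8 (0.023 to 0.0552). Neither gene was called in CCD, and the difference between the segments' changes was not called for either, at 0.69 (95% interval -0.04 to 1.42, adjusted p = 0.371) for Rab3d and 1.10 (0.42 to 1.77, adjusted p = 0.138) for Rab27a, CCD minus cTAL. Rab10, Rab13, Rab8a and Rab8b, which carry cargo from the Golgi and recycling endosomes to the basolateral or apical surface, were called in neither segment at 3 h, with changes from -0.38 (Rab13) to 0.31 (Rab8b) in CCD and from -0.57 (Rab13) to 0.46 (Rab10) in cTAL.

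Rab19, a Golgi Rab also studied in ciliogenesis, read 1.29, 1.38, 3.06 and 1.09 TPM in UUO cTAL and 4.66, 6.49, 8.43 and 4.57 TPM in sham cTAL at 3 h (-1.40, SE 0.32, adjusted p = 0.0227). In CCD it read 3.38, 1.79, 0.985 and 2.25 TPM in UUO and 2.92, 5.57, 5.58 and 4.45 TPM in sham, a change of -0.96 that missed the threshold (adjusted p = 0.0524). The arms did not overlap in cTAL and overlapped in CCD, and the difference between the changes was not called (0.43, adjusted p = 0.69). Rab28, a cilium-associated Rab known from human cone-rod dystrophy, read 119.9, 102, 126 and 101 TPM in UUO cTAL and 148, 156, 147 and 171 TPM in sham cTAL (-0.47, SE 0.12, adjusted p = 0.0385). That is a small change (1.39-fold lower) in an abundant transcript, with no overlap between arms. In CCD Rab28 read 181, 204, 216 and 155 TPM in UUO and 186, 194, 183 and 213 TPM in sham, and the arms overlapped (-0.05, adjusted p = 0.825). Leaving out 1 replicate at a time ended the Rab28 call in 6 of 8 fits (adjusted p 0.0435 to 0.0972) and the Rab19 call in 4 of 8 (0.019 to 0.0662), and the difference between segments was not called for Rab28 (0.43, adjusted p = 0.306). The Rab28 call was also lost with median-of-ratios rescaling (-0.325, adjusted p = 0.21) and with quantile normalization (-0.430, adjusted p = 0.0602).

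In CCD the other members called were Rab20 and Rab40b. Rab20, which acts in endosome and phagosome maturation and is abundant in collecting duct, read 477, 391, 446 and 285 TPM in UUO and 609.6, 658, 617 and 535 TPM in sham, with no overlap (-0.63, SE 0.16, adjusted p = 0.033). In cTAL, where its level was several-fold lower, Rab20 read 103, 123, 109.7 and 139 TPM in UUO and 85.7, 111, 82.5 and 115 TPM in sham (0.27, adjusted p = 0.295). The changes had opposite signs, but their difference of -0.90 (95% interval -1.64 to -0.17) was not called (adjusted p = 0.245). The Rab20 call rested on both libraries together: library 1 alone gave -0.40 (adjusted p = 0.0626) and library 2 alone -0.86 (adjusted p = 0.0678), and it was lost in 5 of the 8 fits that left out 1 replicate (adjusted p 0.0216 to 0.0923). Rab40b, which carries a SOCS box and joins ubiquitin ligase complexes, read 6.46, 5.21, 4.29 and 6.64 TPM in UUO and 11.3, 14.8, 10.2 and 11.2 TPM in sham (-0.91, SE 0.19, adjusted p = 0.0185). This fall sat mainly in library 1, where Rab40b averaged 5.60 TPM in UUO and 15.5 TPM in sham (-1.34, adjusted p = 0.017), while library 2 averaged 5.69 TPM in UUO and 8.27 TPM in sham (-0.47, adjusted p = 0.313). It was also lost without the CCD libraries above 5000 TPM of the thick limb gene Umod (-0.73, adjusted p = 0.1) and in 2 of the 8 fits that left out 1 replicate (0.0211 to 0.0614). In cTAL Rab40b read 0.190, 1.27, 2.86 and 2.32 TPM in UUO and 1.23, 4.72, 1.44 and 0.970 TPM in sham (-0.21, adjusted p = 0.815).

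**Figure D2:**
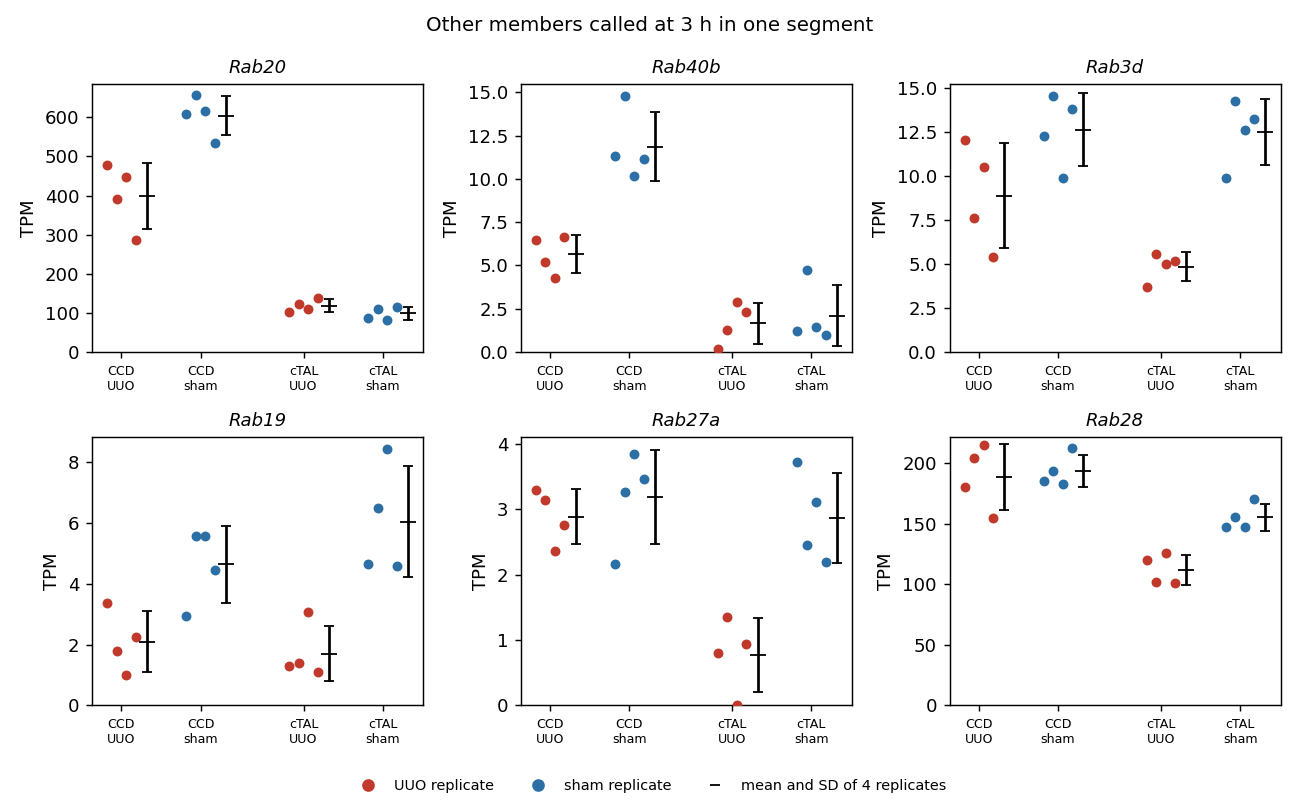
Members called at 3 h in at least 1 segment, other than Rilp and Rab3a, in TPM in each replicate, UUO left of sham, for CCD and cTAL; the black marks beside the points are means with bars of 1 SD (n = 4). Rab20 and Rab40b separate by arm in CCD, and Rab3d, Rab19, Rab28 and Rab27a separate by arm in cTAL.

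The recycling endosome Rabs returned no call at 3 h, 0 of 9 tested in CCD and 0 of 9 in cTAL. Rab11a and Rab25 organise apical recycling endosomes, and Rab11 is found on the vesicles that store aquaporin-2. Rab11a averaged 222 ± 11.1 TPM in UUO CCD and 213 ± 11.7 TPM in sham CCD (0.05, 95% interval -0.13 to 0.24), and 139 ± 11.4 TPM in UUO cTAL and 148 ± 24.3 TPM in sham cTAL (-0.08, -0.41 to 0.25). Rab25, the epithelial member of the Rab11 group, read 140.2, 134, 131 and 105 TPM in UUO CCD and 166, 161, 159.5 and 156 TPM in sham CCD. These arms did not overlap, yet the change of -0.35 missed the threshold (adjusted p = 0.0603). It passed in 2 of 17 alternatives, without the CCD libraries above 5000 TPM of Umod (adjusted p = 0.038) and without UUO replicate 1 (0.0436). With median-of-ratios rescaling it was -0.20 (adjusted p = 0.203). In cTAL Rab25 read 89.9, 76.3, 67.9 and 82.5 TPM in UUO and 88.7, 98.3, 103 and 117 TPM in sham (-0.36, adjusted p = 0.133). Rab15 had changes of opposite sign, -0.83 in CCD (adjusted p = 0.0951) and 0.84 in cTAL (adjusted p = 0.15), and the smallest adjusted p of any member for the difference between the segments at 3 h, -1.67 (adjusted p = 0.0531), which missed the threshold.

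The positive changes with the smallest p at 3 h, 2 in CCD and 1 in cTAL, also missed it. Rab32, which acts at lysosome-related organelles and mitochondria, averaged 4.51 ± 3.13 TPM in UUO CCD and 1.33 ± 0.368 TPM in sham CCD (1.06, adjusted p = 0.0947). Rab29, which recruits Lrrk2 to Golgi and lysosomal membranes, averaged 179 ± 24.2 TPM in UUO CCD and 139 ± 13.5 TPM in sham CCD (0.33, adjusted p = 0.0901). Rab22a, an early endosome Rab, averaged 28.2 ± 15.4 TPM in UUO cTAL and 9.31 ± 4.86 TPM in sham cTAL (1.51, adjusted p = 0.0891). Counting unadjusted p under 0.05, 12 members passed in CCD at 3 h, 2 higher and 10 lower, against 30.9% of all genes, and 12 in cTAL, 2 higher and 10 lower, against 28.4% of all genes. The arms did not overlap for 7 members in CCD, 2 higher and 5 lower, against 21.3% of all genes, and for 8 in cTAL, all lower, against 19.8%.

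**Figure D3:**
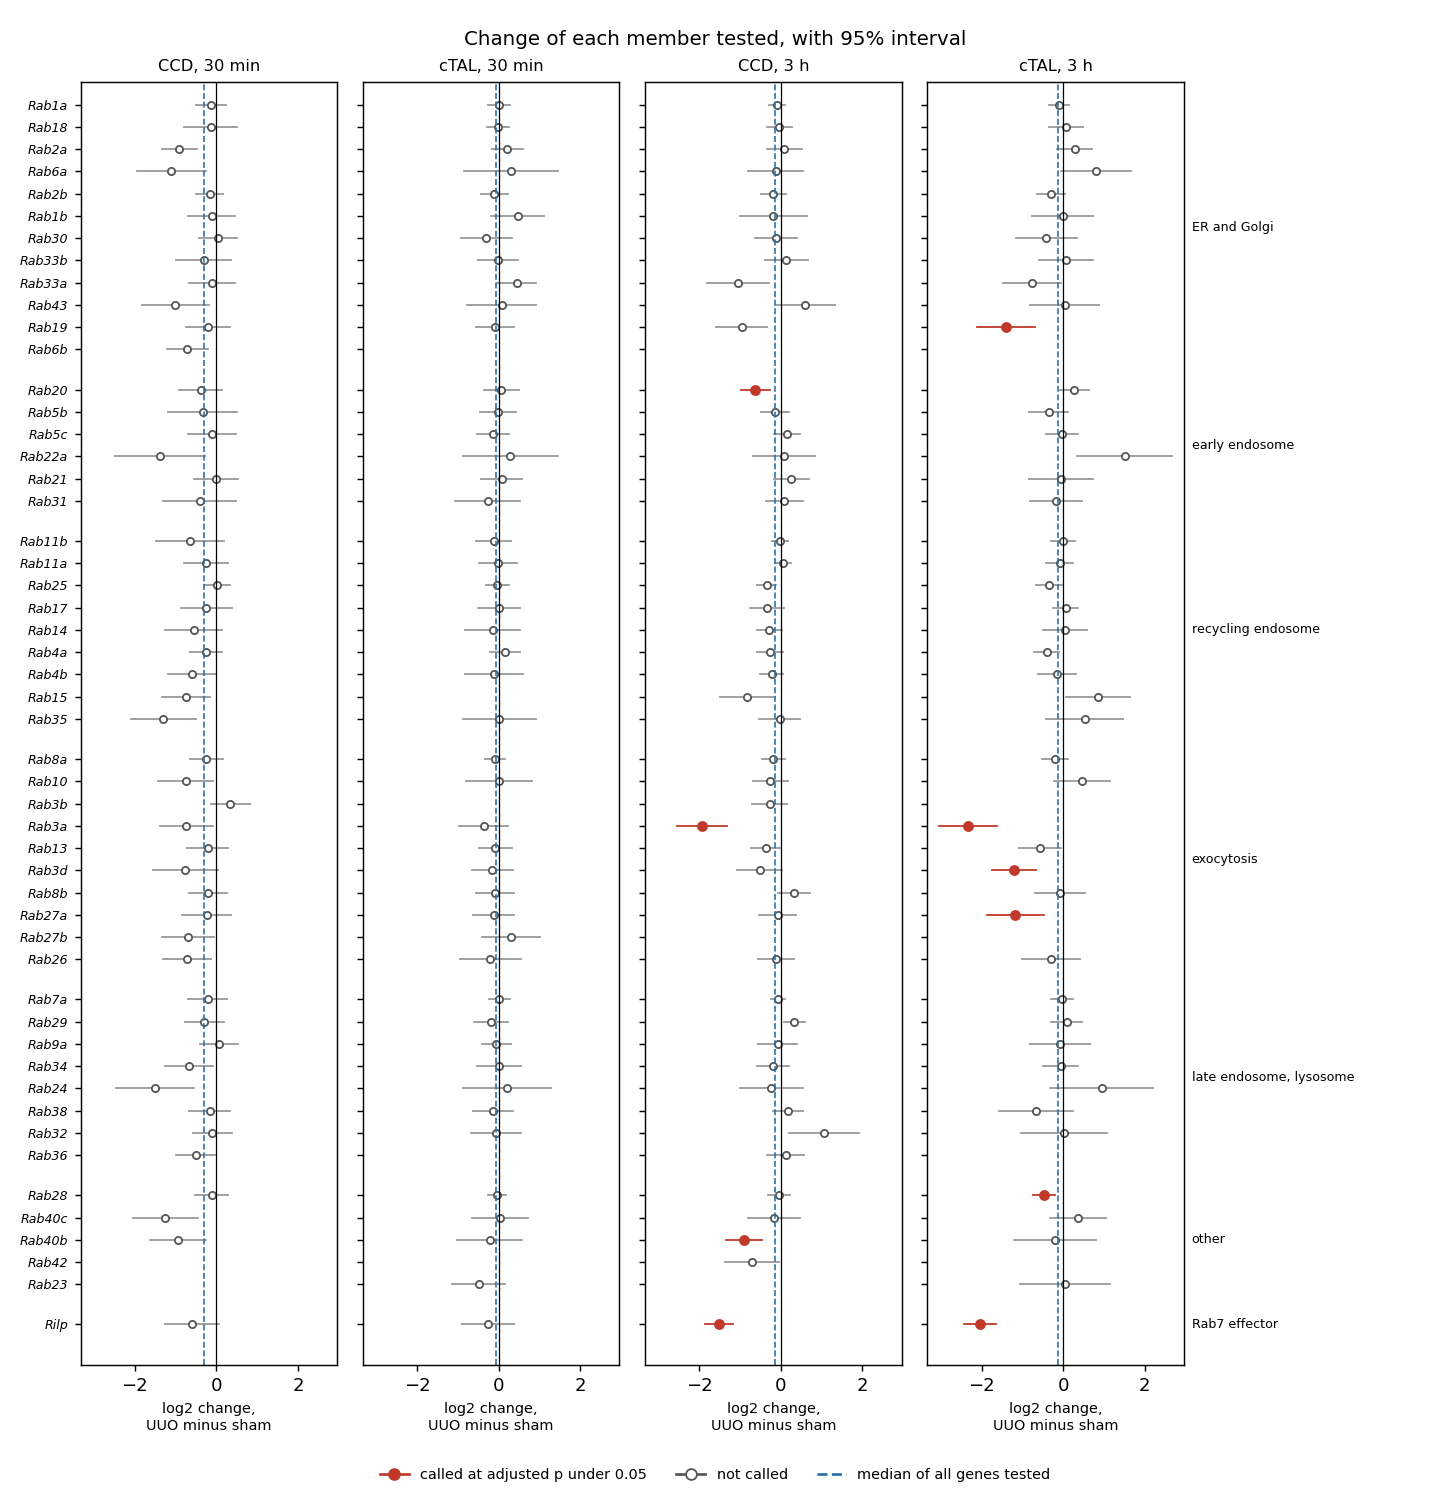
Change in log2(TPM + 1), UUO minus sham, with its 95% interval, for each member tested in CCD and cTAL at 30 min and 3 h, ordered by role; filled red points are called by limma and the dashed line is the median of all genes tested. The called members all lie left of 0 and appear at 3 h only, with Rilp and Rab3a farthest left in both segments.

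Markers of other cells moved at 3 h in the same libraries. In CCD the 8 principal cell markers summed to 5724 to 10359 TPM in UUO and 16333 to 19238 TPM in sham, and 6 of 8 fell, among them Aqp2 (-1.24, adjusted p = 0.00782). In cTAL they summed to 391 to 542 TPM in UUO and 821 to 1316 TPM in sham, with no overlap, and 2 of 7 tested fell, Avpr2 (-1.51, adjusted p = 0.00113) and Kcnj1 (-1.01, adjusted p = 0.00152), both also known from thick limb cells. The principal cell sums were thus lower in UUO in both segments, but the list as a whole did not fall in cTAL. The median change of the 7 tested there was 0.37, beside -0.12 for all genes. Aqp2 read 50.95, 22.34, 10.37 and 16.94 TPM in UUO cTAL and 360.64, 0.34, 4.34 and 0.41 TPM in sham cTAL. In CCD the 9 intercalated cell markers summed to 7998 to 12005 TPM in UUO and 8992 to 13443 TPM in sham, with 1 of 9 lower. Proximal tubule markers were higher in UUO, summing to 422 to 2571 TPM in UUO CCD and 136 to 667 TPM in sham CCD (3 of 7 tested rose), and to 1373 to 2995 TPM in UUO cTAL and 505 to 1108 TPM in sham cTAL (4 of 7 rose). In CCD the macrophage markers summed to 156 to 253 TPM in UUO and 83.0 to 215 TPM in sham, and 3 of 6 tested rose (C1qa, C1qb and C1qc). In cTAL they summed to 119 to 429 TPM in UUO and 700.2 to 1336 TPM in sham, and 3 of 7 tested fell (Lyz2, Csf1r and Cd68). Endothelial markers summed to 39.5 to 65.7 TPM in UUO CCD and 24.3 to 120.1 TPM in sham CCD (0 of 4 tested called), and to 50.3 to 83.5 TPM in UUO cTAL and 56.5 to 338 TPM in sham cTAL, where 2 of 5 fell (Emcn and Cdh5). Smooth muscle and pericyte markers summed to 6.57 to 39.5 TPM in UUO CCD and 0.520 to 4.59 TPM in sham CCD, and the 1 tested, Tagln, rose. Hemoglobin and Alas2 summed to 1494 to 7895 TPM in UUO CCD and 25.4 to 1187 TPM in sham CCD, and 4 of 4 tested entries rose. In cTAL they summed to 1834 to 11334 TPM in UUO and 29.8 to 3161 TPM in sham (0 of 4 called). The thick limb markers of cTAL itself summed to 32212 to 36731 TPM in UUO and 36929 to 62747 TPM in sham, with no overlap, and 1 of 7 fell. The macrophage marker Cd163 was listed at 0 throughout at 3 h. The part of these cells in the changes of Rilp, Rab3a and the other members was not tested.

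Of the wider Rab machinery, 7 gene lists were set beside the members, and none of their genes was called at 30 min in either segment. The counts at 3 h stand beside 13% of all genes called in CCD (5% higher and 8.04% lower) and 11.7% in cTAL (4.06% higher and 7.64% lower), and nothing particular to a list is read from them. Of the exchange factors, 0 of 17 tested rose and 1 fell in CCD at 3 h, Mon1a (-0.67, adjusted p = 0.0462), which with Ccz1 activates Rab7. In cTAL 1 of 17 rose, Rin2 (0.97, adjusted p = 0.0364), which activates Rab5, and 2 fell: Rab3il1 (-1.62, adjusted p = 0.0227), an exchange factor of the Rab8 subfamily that was first found as a Rab3a partner, and Ankrd27 (-1.35, adjusted p = 0.0498), which activates Rab21. Of the GAPs, 3 of 23 fell in CCD (Sgsm3 -0.86, Tbc1d7 -0.65 and Tbc1d13 -0.63, adjusted p from 0.0175 to 0.0449) and 2 of 18 in cTAL (Tbc1d14 -1.98, adjusted p = 0.00507, and Tbc1d13 -1.40, adjusted p = 0.0264). Tbc1d13, a GAP of Rab35, was thus lower in UUO in both segments.

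Of the effectors, 0 of 24 were called in CCD and 1 of 21 in cTAL, where Sytl2, a Rab27 effector that tethers granules, fell (-1.37, adjusted p = 0.0373). Of the SNARE and exocyst genes, which carry out fusion and tethering, 1 of 23 rose (Vamp3, 0.53, adjusted p = 0.035) and 1 fell (Stxbp2, -0.42, adjusted p = 0.0366) in CCD, and 2 of 23 fell in cTAL (Vamp4, -1.02, adjusted p = 0.00982, and Stx4, -0.89, adjusted p = 0.0419). Of the retromer, HOPS and dynein genes, 3 of 20 fell in CCD and 0 of 20 were called in cTAL. The 3 were the retromer subunit Vps26b (-1.04, adjusted p = 0.0482), the retromer-associated sorting nexin Snx2 (-0.45, adjusted p = 0.0385) and Dctn1 (-0.61, adjusted p = 0.0298), the large subunit of the dynactin complex that Rilp recruits. Of the lysosomal genes 2 of 15 rose in CCD and 1 of 14 in cTAL, with none lower: Npc1 (0.95, adjusted p = 0.0401), the lysosomal cholesterol exporter, and Ctsl (0.50, adjusted p = 0.0416), the protease cathepsin L, in CCD, and Ctsl (0.71, adjusted p = 0.0368) in cTAL. Prenylation and recycling factors, which attach the lipid anchor of Rabs or keep them soluble, had 0 of 7 called in CCD and 0 of 6 in cTAL. The medians of these 7 lists ran from -0.33 (effectors) to -0.02 (lysosome) in CCD, beside -0.14 for all genes, and from -0.27 (retromer, HOPS and dynein) to -0.01 (lysosome) in cTAL, beside -0.12.

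At 30 min no member was called. In CCD 0 of 49 members passed, against 0.0264% of all genes (0.0088% higher and 0.0176% lower), and in cTAL 0 of 46, against 0.0091%. At an unadjusted p under 0.05 there were 17 members in CCD, all lower in UUO, against 15.7% of all genes, and 0 in cTAL, against 2.27%. In CCD 45 of the 49 changes were below 0, but the median over members of -0.31 was that over all genes, also -0.31. Library 2 of UUO number 2 had the fewest genes at 1 TPM or above (8744), and with library 1 alone for that number the medians were -0.20 over members and -0.17 over all genes. Without UUO replicate 2 they were -0.17 and -0.14. The share of TPM in mitochondrial transcripts ran from 19.3% to 27.1% over the UUO CCD libraries and from 15.5% to 23.6% over the sham CCD libraries, and its part in the changes was not tested. Rescaling each library by median-of-ratios moved the median of all genes to -0.02 and that of the members to 0.02. In cTAL the members' median was -0.03 and that of all genes -0.07, and the 5 members with the smallest p there, all at an adjusted p of 1, were Rab33a (0.44), Rab23 (-0.49), Rab1b (0.46), Rab3a (-0.36) and Rab2a (0.21). Values of 7 members in CCD did not overlap between arms, all lower in UUO, against 10.9% of all genes, and those of 0 members in cTAL, against 1.72%.

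**Figure D4:**
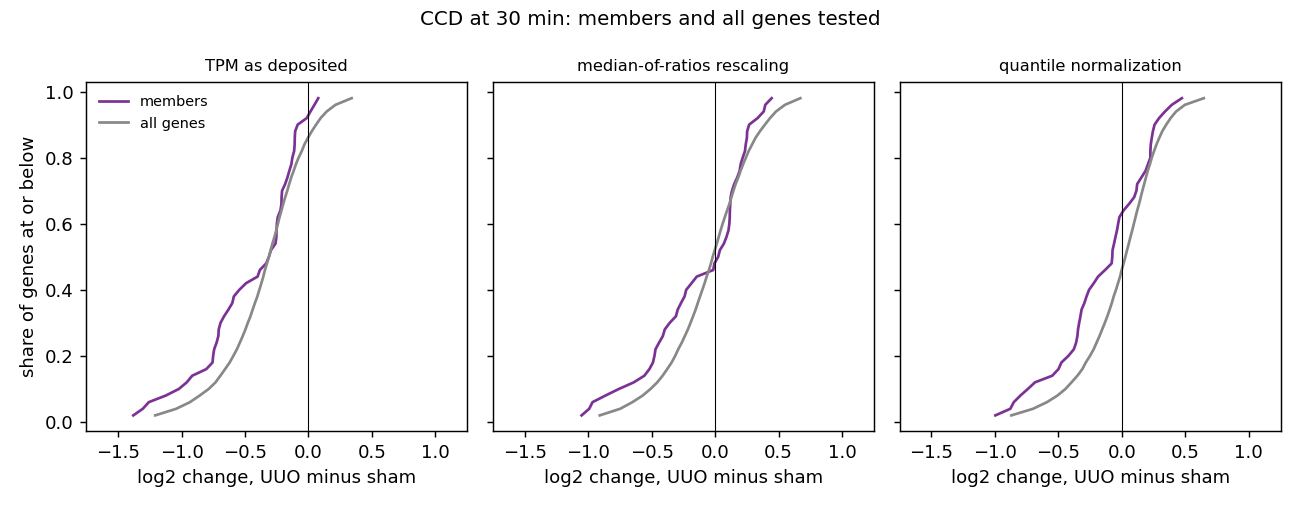
Distribution of the log2(TPM + 1) change, UUO minus sham, in CCD at 30 min, as the share of genes (y) at or below each change (x), drawn from the 2% to the 98% quantile for the members and for all genes tested, on TPM as deposited and after 2 rescalings. On TPM as deposited the lines meet at a median of -0.31. The members' line lies to the left in the lower part and again in most of the upper part (-0.085 against 0.060 at a share of 0.9). Rescaling moves the medians of members and all genes to 0.02 and -0.02 (median-of-ratios) and to -0.075 and 0.028 (quantile).

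The lowest changes in CCD at 30 min were those of Rab24 (-1.50), which acts in late endosome and autophagosome turnover, Rab22a (-1.38), Rab35 (-1.299), of fast recycling, Rab40c (-1.25) and Rab6a (-1.10), of Golgi to ER transport. Rab2a (-0.90, adjusted p = 0.235) and Rab6b (-0.71, adjusted p = 0.256) were also among the 5 smallest p. Several of these are the members whose 2 libraries differed in sham. Library 1 alone called 11 of 49 members lower (Rab10, Rab15, Rab22a, Rab24, Rab2a, Rab34, Rab35, Rab40b, Rab40c, Rab43 and Rab6a), against 8.4% of all genes, and library 2 alone called 0. Rab24 averaged 14.6 TPM (library 1) and 10.98 TPM (library 2) in UUO CCD, and 71.0 and 14.0 TPM in sham CCD. Rab2a, which acts between the ER and Golgi, averaged 49.3 and 50.8 TPM in UUO CCD, and 161 and 54.1 TPM in sham CCD. Rab6a averaged 26.9 and 27.9 TPM in UUO CCD, and 102 and 32.3 TPM in sham CCD. For Rab2a, Rab6a and Rab24 both UUO libraries were close to each other and to sham library 2, and sham library 1 stood above all of these.

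The difference between the segments' changes at 30 min was called for 2 of 45 members, Rab2a and Rab6a, both lower, against 0.914% of all genes. Rab2a read 39.7, 50.9, 45.3 and 64.5 TPM in UUO CCD and 92.2, 111, 117 and 111 TPM in sham CCD, against 49.2, 57.1, 59.4 and 84.9 TPM in UUO cTAL and 57.2, 53.1, 48.3 and 54.0 TPM in sham cTAL. Its change in CCD minus that in cTAL was -1.11 (SE 0.18, adjusted p = 0.0374). Rab6a read 13.5, 22.2, 27.7 and 46.1 TPM in UUO CCD and 39.0, 68.9, 82.0 and 79.2 TPM in sham CCD, against 7.07, 10.3, 10.1 and 40.6 TPM in UUO cTAL and 6.15, 8.08, 14.7 and 16.5 TPM in sham cTAL, a difference of -1.41 (SE 0.27, adjusted p = 0.0496). With a replicate block neither was called (adjusted p = 0.189 for Rab2a and 0.166 for Rab6a), nor with median-of-ratios rescaling (0.212 for both), quantile normalization (0.177 for both), an offset of 0.1 TPM (0.0677 and 0.0929) or a filter at 5 TPM (0.07 and 0.0815), and without a filter Rab2a alone was (0.0485 and 0.0865). Both calls were lost in 7 of the 8 fits that left out 1 replicate and kept without UUO replicate 3. They rest on library 1: with library 1 alone the differences were -1.93 (adjusted p = 0.000482) and -2.26 (0.00198), and with library 2 alone -0.29 (0.599) and -0.56 (0.593). Rab24 (-1.71), Rab22a (-1.67) and Rab35 (-1.32) followed in p without a call. At 3 h the difference was called for 0 of 45 members by limma, against 0.729% of all genes, with 9 members at an unadjusted p under 0.05 (3 higher and 6 lower, against 14.7% of all genes). After Rab15, the smallest p were those of Rab27a (1.10), Rab6a (-0.93), Rab22a (-1.44) and Rab20 (-0.90), with adjusted p of 0.138 to 0.245. For Rilp the difference at 3 h was 0.51 (95% interval -0.04 to 1.06) and for Rab3a 0.40 (-0.78 to 1.57), so the data do not tell whether either fell more in cTAL than in CCD.

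In sham kidneys the Rab transcriptome differed between the segments. At 30 min the members' TPM summed to 4055 ± 306 in sham CCD and 2420 ± 156 in sham cTAL, and at 3 h to 4114 ± 107 in sham CCD and 2684 ± 66.2 in sham cTAL (SD, n = 4). In UUO the sums were 3409 ± 575 in CCD and 2400.4 ± 296 in cTAL at 30 min, and 3617 ± 240 in CCD and 2530 ± 146 in cTAL at 3 h. Between segments within the sham numbers 38 of 50 members were called at 30 min, 36 higher and 2 lower in CCD, against 54.9% of all genes (41.7% higher and 13.2% lower). At 3 h 27 of 48 were called, 26 higher and 1 lower, against 38.2% of all genes (27.7% higher and 10.4% lower). The members' median difference was 0.73 at 30 min and 0.47 at 3 h, against 0.30 for all genes at both times. With median-of-ratios rescaling, which brought the median of all genes close to 0, the split was 25 higher and 5 lower at 30 min and 13 and 3 at 3 h. All genes then split 3107 higher and 2741 lower of 11648 at 30 min, and 1576 and 1759 of 10521 at 3 h. With quantile normalization the members split 25 and 5 at 30 min and 12 and 3 at 3 h. The split of all genes was then 2913 and 3164 at 30 min and 1547 and 1701 at 3 h. Leaving out sham replicate 3 lowered the count at 3 h to 17. That fit still needed 4 values at 1 TPM or more, so members high in 1 segment alone could go untested. The share of all genes called there is not given, so the fall is not read as particular to the members. Of the members called, 26 were shared by the 2 times (26 of 38 and 26 of 27), 25 of them higher in CCD at both.

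**Figure D5:**
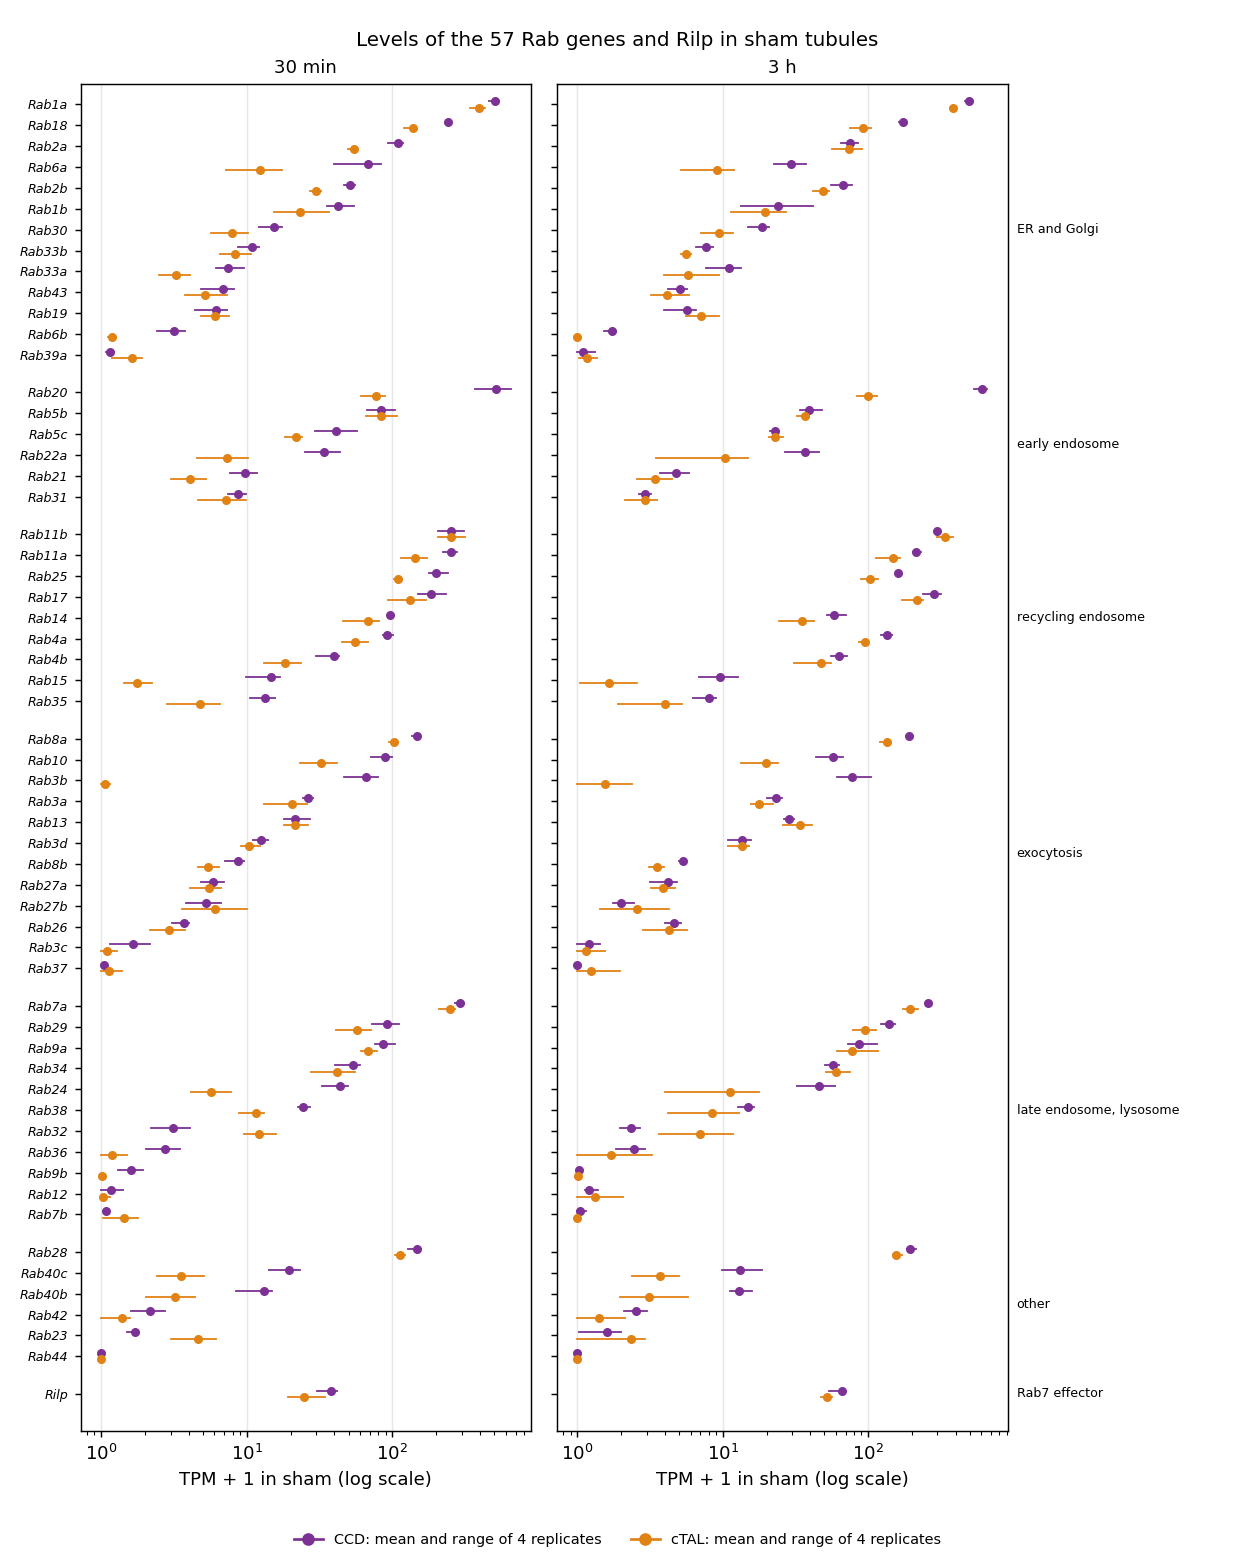
Level of each member in sham CCD and sham cTAL at 30 min and 3 h as TPM + 1 on a log axis, ordered by role; points are means of 4 replicates and bars run from the lowest to the highest replicate. Rab3b, Rab20 and Rab15 lie far to the right in CCD, Rab32 lies to the right in cTAL, and most other members lie somewhat further to the right in CCD than in cTAL.

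Rab3b, a regulated exocytosis Rab found in epithelial and endocrine cells, was high in CCD and near 0 in cTAL. At 30 min it read 65.0, 78.7, 45.6 and 71.6 TPM in sham CCD and 0.160, 0.0700, 0 and 0 TPM in sham cTAL, and at 3 h 70.6, 60.4, 103 and 72.8 TPM in sham CCD and 1.37, 0.860, 0 and 0 TPM in sham cTAL. Every CCD value was far above every cTAL value, and the differences were 5.94 (SE 0.17, adjusted p = 1.25e-06) and 5.70 (SE 0.34, adjusted p = 0.000117). In sham cTAL Rab3b lay under 1 TPM at 30 min and mostly under it at 3 h, so it passed the level filter through CCD. The p-values therefore describe the gap and give no separate support for it. Rab3b was not tested in the 30 min fits that left out a replicate number. Under obstruction the change of Rab3b in CCD was 0.35 at 30 min (95% interval -0.14 to 0.83) and -0.28 at 3 h (-0.70 to 0.15), neither called, and in cTAL it was too low to be tested. The change of Rab3a at 3 h lay outside that interval, although a test of the difference between these 2 genes was not made.

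Rab20 was the most abundant member in sham CCD, at 514 ± 137 TPM at 30 min and 605 ± 51.0 TPM at 3 h, against 76.5 ± 11.8 TPM and 98.4 ± 16.6 TPM in sham cTAL. The differences were 2.704 and 2.62 (adjusted p = 2.22e-05 and 7.71e-05). Rab15, an early and recycling endosome Rab, averaged 13.6 ± 3.24 TPM in sham CCD and 0.770 ± 0.348 TPM in sham cTAL at 30 min, a difference of 3.01 (adjusted p = 4.25e-05), and at 3 h the difference was 2.57 (adjusted p = 0.000611). Rab15 averaged under 1 TPM in sham cTAL at both times, so it passed the level filter mainly through CCD. Rab40b and Rab40c were also higher in CCD, by 1.99 and 2.48 at 30 min and by 2.12 and 1.82 at 3 h (adjusted p from 3.08e-05 to 0.00434). Of the members split by library, Rab24, Rab6a and Rab22a were higher in CCD by 2.57, 2.26 and 2.08 at 30 min, and by 1.42, 1.41 and 1.35 with library 2 alone, all still called. At 3 h they were higher by 2.00, 1.60 and 1.82, and by 1.301, 0.996 and 1.14 with library 2 alone, again called. Rab2a was higher in CCD by 0.80 at 30 min (adjusted p = 0.00132), by 1.58 (adjusted p = 5.14e-05) with library 1 alone and by 0.014 (adjusted p = 0.937) with library 2 alone, so that its call rests on library 1. At 3 h its difference was -0.09 (adjusted p = 0.677), 0.48 with library 1 alone and -0.67 (adjusted p = 0.0186) with library 2 alone. Rab10 was higher in CCD by 1.46 at 30 min and 1.45 at 3 h, and by 1.12 and 0.94 with library 2 alone, called each time.

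Rab32 ran the other way. It read 1.88, 3.05, 2.27 and 1.20 TPM in sham CCD and 8.52, 12.2, 9.13 and 14.9 TPM in sham cTAL at 30 min, and 1.61, 1.05, 0.965 and 1.68 TPM in sham CCD and 2.95, 2.65, 7.72 and 10.7 TPM in sham cTAL at 3 h. The differences were -1.99 (SE 0.24, adjusted p = 0.000471) and -1.46 (SE 0.34, adjusted p = 0.0174). The call at 3 h was lost in 2 of the 4 fits that left out a replicate number (adjusted p 0.0242 to 0.074) and without a filter (adjusted p = 0.05). Rab23, which acts in ciliary Hedgehog signalling, was lower in CCD at 30 min, with 0.699 ± 0.135 TPM in sham CCD and 3.64 ± 1.63 TPM in sham cTAL (-1.40, adjusted p = 0.00236). It lay under 1 TPM in CCD and passed the level filter through cTAL, so this p-value gives no separate support for the gap. At 3 h Rab23 averaged 0.605 ± 0.413 TPM in sham CCD and 1.33 ± 0.901 TPM in sham cTAL, and it was not tested. Markers of several cell types were also lower in sham CCD. Macrophage markers at 30 min summed to 119 to 257 TPM in sham CCD and 550.3 to 1731 TPM in sham cTAL, and at 3 h to 83.0 to 215 TPM in sham CCD and 700.2 to 1336 TPM in sham cTAL. Of the endothelial markers 5 of 6 tested were lower in sham CCD at 30 min and 4 of 5 at 3 h, and all 7 thick limb markers were lower at both times. At 30 min 7 of 8 principal cell and 9 of 9 intercalated cell markers were higher in CCD. The part of these cells in the Rab32 and Rab23 differences was not tested.

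Rab1a, Rab11b and Rab7a were among the 5 most abundant members of sham CCD and of sham cTAL at both times. In CCD at 30 min Rab20 and Rab1a, the main ER to Golgi Rab (502 ± 31.4 TPM), overlapped each other and stood above Rab7a (289.7 ± 16.1 TPM), Rab11b (251 ± 45.6 TPM) and Rab11a (249 ± 23.8 TPM), which overlapped in turn. In cTAL at 30 min Rab1a (389 ± 42.5 TPM) stood above Rab11b (251 ± 45.1 TPM) and Rab7a (247 ± 26.6 TPM), which overlapped, and these above Rab11a (141 ± 29.7 TPM) and Rab18 (137 ± 12.2 TPM), a lipid droplet and ER Rab. At 3 h the CCD order was Rab20, then Rab1a (496 ± 30.5 TPM), then Rab11b (297 ± 5.38 TPM), Rab17 (285 ± 33.2 TPM), an epithelial recycling Rab, and Rab7a, of which Rab11b and Rab17 overlapped, as did Rab17 and Rab7a. In cTAL at 3 h Rab1a (381 ± 16.0 TPM) and Rab11b (337 ± 37.0 TPM) overlapped and stood above Rab17 (215 ± 31.4 TPM) and Rab7a, with Rab28 (155 ± 10.9 TPM) next. Rab11b was not called between the segments at either time (-0.003, 95% interval -0.27 to 0.26, and -0.18, -0.40 to 0.03), although median-of-ratios rescaling called it lower in CCD at both, whereas its paralog Rab11a was higher in CCD (0.83, adjusted p = 0.00109, and 0.53, adjusted p = 0.023). The Rab11a call at 3 h was lost with median-of-ratios rescaling (0.21, adjusted p = 0.331), with quantile normalization (0.31, adjusted p = 0.125), without a filter (adjusted p = 0.0504) and in 2 of the 4 fits that left out a replicate number (adjusted p 0.0277 to 0.0693). Rab25 was higher in CCD too, by 0.87 and 0.66 (adjusted p = 0.000716 and 0.0046). Reads shared between such close paralogs are divided by the authors' software, so small differences between them are uncertain.

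Rilp itself averaged 37.0 ± 5.24 TPM in sham CCD and 23.7 ± 6.85 TPM in sham cTAL at 30 min, higher in CCD by 0.65 (SE 0.15, adjusted p = 0.00977), a call lost with median-of-ratios rescaling (0.32, adjusted p = 0.096) and with quantile normalization (0.29, adjusted p = 0.133). At 3 h it averaged 64.6 ± 7.75 TPM in sham CCD and 51.0 ± 3.51 TPM in sham cTAL, a difference of 0.33 that was not called (adjusted p = 0.0771). Rab3a did not pass between the segments at either time (0.41, adjusted p = 0.0688, and 0.39, adjusted p = 0.145). Rab27b, a partner of Rab27a in granule docking, was low in both segments, with 4.25 ± 1.29 TPM in sham CCD and 5.04 ± 2.81 TPM in sham cTAL at 30 min, and its changes under UUO at 30 min were -0.70 and 0.30, neither called. It was not tested at 3 h.

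Of the 58 members, 44 were tested for UUO against sham in both segments at both times. Rab12, Rab37, Rab39a, Rab3c, Rab44, Rab7b and Rab9b passed the level filter in none of these 4 comparisons. The highest single library among them was 4.73 TPM, for Rab3c, a neuronal Rab3, and Rab44 reached at most 0.04 TPM.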

How the data were processed

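RNA of microdissected CCD and cTAL was measured in 48 libraries (24 at 30 min and 24 at 3 h). Per the labels' protocols, a SMARTer V4 kit made the cDNA and Nextera XT the libraries; strand is not stated, so antisense reads were not separated from a gene's own. Per the submitters' processing notes, STAR 2.7.3, RSEM 1.3.3 and the build Rnor_6.0 were used. The authors deposited TPM per gene, in a separate table for each time, so depth is unknown, and no interval that needs it is given. A change in the RNA of a few abundant genes shifts the TPM of all others.

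Values were analysed as log2(TPM + 1), after averaging the 2 CCD libraries of a number on the log2 scale. Genes at 1 TPM or more in at least 4 of 8 replicates were fitted with limma 3.58.1 in R 4.3.3 (mean-variance trend; with the data.table package, version 1.17.8), 4 UUO against 4 sham replicates per segment and time. P-values were adjusted by Benjamini-Hochberg over all genes tested. Sham segments were compared with the replicate number as a block, since both segments carry the same number. Deviations of same-numbered segments correlated in sham at 0.275 to 0.431 at 30 min and 0.061 to 0.221 at 3 h. In UUO they correlated at 0.112 to 0.609 over both times. The difference between the segments' changes was tested on CCD minus cTAL within each number. The labels do not say whether both segments of a number came from the same rat. The exact permutation test of a single member was two-sided (scipy 1.17.1, Python 3.11.15), and figures were drawn with matplotlib 3.10.9. The fits were tested on simulated data. The alternatives were another offset, other filters, rescalings, single CCD libraries, libraries left out and a block on the replicate number.

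Same-numbered UUO and sham replicates deviated together weakly in CCD at 30 min (correlations 0.115 to 0.229 in all 4 pairs), so the numbers may pair the samples there. Differently numbered replicates were not compared in this way. The 30 min CCD values given are still from the fit without a block, and the block changed no call on a member in CCD. The labels do not say what the numbers share between arms.

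Members named in full were those called for UUO against sham, a fixed few (Rilp, Rab7a, Rab11a, Rab25, Rab27b and Rab3b), the 5 most abundant in sham, the 8 largest called segment differences in each direction, and the 5 with the smallest p where few were called. Rab2a, Rab3a and Rab10 were added for the sham segments after their values were seen. The members, the gene lists and this rule were chosen with earlier results of these data known.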

Additional observations from a re-analysis of the deposited data

Results flagged for a closer look

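At 30 min the change in CCD differed from that in cTAL for 2 members by limma on CCD minus cTAL within each number. The difference was -1.11 for Rab2a (adjusted p = 0.0374) and -1.41 for Rab6a (adjusted p = 0.0496). Both were lost with CCD library 2 alone, as given above.

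In 5 of the 60 groups of 4 replicates examined, 1 value stood apart from the other 3, with a gap to its nearest neighbour above Dixon's critical share of the group's range; chance flags about 1 group in 20. At 3 h these were Rilp in sham CCD (replicate 4, 53.1 TPM), Rilp in UUO cTAL (replicate 1, 9.52 TPM), Rab19 in UUO cTAL (replicate 3, 3.06 TPM) and Rab40b in sham cTAL (replicate 2, 4.72 TPM). At 30 min it was Rab6a in UUO cTAL (replicate 4, 40.6 TPM). Neither Rilp value closed the gap between UUO and sham.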

How the results depend on the processing

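Rilp and Rab3a kept their calls at 3 h in both segments under every alternative run. Leave-one-out fits included, Rilp ran from -1.74 to -1.31 in CCD (adjusted p 0.00107 to 0.0103) and from -2.11 to -1.89 in cTAL (0.000225 to 0.00745). Rab3a ran from -2.15 to -1.76 in CCD (0.00213 to 0.0209) and from -2.72 to -2.10 in cTAL (0.00202 to 0.0149).

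Counts of called members that moved by over 1.5 times were these. In CCD at 30 min library 1 alone called 11, against 0, beside 8.4% of all genes, against 0.0264%. In CCD at 3 h library 2 alone called 2, beside 4.71% of all genes. In sham at 3 h median-of-ratios rescaling called 16 and quantile normalization 15, against 27. The shares of all genes called were 31.7% and 30.9%, against 38.2%. For the difference between segments at 30 min, against 2, the count was 0 with an offset of 0.1 TPM, a filter at 5 TPM, median-of-ratios rescaling, quantile normalization or library 2 alone, 1 without a filter and 8 with library 1 alone. At 3 h library 1 alone called 1, against 0. The shares of all genes in these fits of the difference are not given, so nothing about the members is read from these counts. Leaving out 1 replicate gave 2 to 9 in CCD at 3 h, beside 4.42% to 15.5% of all genes. It gave 2 to 6 in cTAL at 3 h (4.51% to 10.1%) and 27 to 32 in sham at 30 min (41% to 49.8%). The counts were 0 to 10 for the difference at 30 min and 17 to 25 in sham at 3 h. Shares of all genes are not given for these, and nothing about the members is read from them. The filter still needed 4 replicates, of fewer, so members high in 1 segment alone could go untested.

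With a replicate block 4 members were called in CCD at 3 h, the same 4, and 4 in cTAL at 3 h, where Rab27a (adjusted p = 0.0897) and Rab28 (0.0987) were lost. The shares of all genes called with the block were 7.31% in CCD and 5.79% in cTAL. The block left 0 in both segments at 30 min and gave 0 for the difference between segments at 30 min. Without the replicate block the sham segments gave 34 at 30 min and 27 at 3 h, beside 49.5% and 37.3% of all genes. Correlations of same-numbered replicates ran from -0.233 to 0.179 in cTAL at 30 min, -0.218 to 0.120 in CCD at 3 h and -0.116 to 0.050 in cTAL at 3 h, so the numbers were not taken as pairs there.

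Some changes turned sign, among them the sham segment differences of Rab7a at 30 min (0.23) and Rab28 at 3 h (0.31), which were called. With median-of-ratios rescaling Rab11a was 0.11 and Rab7a 0.16 in CCD at 30 min, Rab25 0.06 and Rab11a 0.07 in cTAL at 30 min, Rab7a 0.078 in CCD at 3 h, Rab11a 0.065 and Rab7a 0.12 in cTAL at 3 h, Rab7a -0.10 between sham segments at 30 min and Rab28 -0.006 at 3 h. With quantile normalization Rab25 was 0.035 and Rab11a 0.023 in cTAL at 30 min, Rab7a -0.091 between sham segments at 30 min, and Rab3a -0.026 at 3 h. With library 1 alone Rab7a was 0.073 and Rab25 -0.03 in CCD at 30 min, and the difference for Rilp at 30 min was 0.036, and Rab2a was 0.482 between sham segments at 3 h. With CCD UUO number 2 from library 1 alone Rab7a was 0.013 and Rab25 -0.052. With library 2 alone Rab11a was -0.024 in CCD at 3 h and Rab11b 0.037 between sham segments at 30 min. Leaving out 1 replicate, Rab25 ran from -0.042 to 0.10 and Rab7a from -0.32 to 0.010 in CCD at 30 min, Rab25 from -0.093 to 0.057, Rab11a from -0.14 to 0.15 and Rab7a from -0.06 to 0.06 in cTAL at 30 min, Rab7a from -0.11 to 0.032 in cTAL at 3 h, and, between sham segments, Rab11b from -0.12 to 0.093 and Rab27b from -0.429 to 0.283 at 30 min and Rab2a from -0.266 to 0.047 at 3 h. None of these sign changes was of a called UUO change, and the cause was not tested. The depth of the libraries is unknown, so that low members such as Rab27a, Rab19 and Rab40b have an uncertain precision.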

Other observations

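In sham, most lysosomal genes tested were higher in CCD than in cTAL. Of the 15 lysosomal genes tested, 14 were higher in CCD at 30 min, beside 41.7% of all genes, and 13 at 3 h, beside 27.7%. The tetraspanin Cd63 was lower in CCD at both times (-0.77, adjusted p = 0.000114, and -1.14, adjusted p = 0.000687). At 30 min Lamp1, a lysosomal membrane protein, differed by 2.36 (adjusted p = 1.21e-05) and Npc1 by 2.76 (adjusted p = 5.13e-05), and at 3 h by 1.26 (adjusted p = 0.00119) and 1.98 (adjusted p = 0.0012). Several Rab partners stood far apart between the segments at 30 min. Tbc1d1, a GAP of the Rab8 and Rab10 group, was higher in CCD by 4.64 (adjusted p = 2.21e-06) and the Rab27 effector Sytl5 by 3.21 (adjusted p = 8.39e-06), while the Rab27 effector Sytl2 was lower in CCD by a log2 difference of -3.11 (adjusted p = 0.000268).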
